A study of Mus musculus with 36 samples.

Results

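67NR control tumors were compared between 2 hosts: BALB/c mice, which have an intact immune system, and NSG mice, which lack most of the lymphocyte compartment. The 6 tumors were chosen by their titles and host labels alone, and they make up 6 of the 36 tumors of the series. 67NR is a mouse mammary carcinoma line of BALB/c origin, so BALB/c mice are its syngeneic hosts. All 6 tumors arose from 67NR cells that carried a control shRNA from a retrovirus, injected into mammary fat pad 4 and harvested on day 21. In 3 tumors the host was BALB/c, and in the other 3 it was NOD/SCID/Ifrg2r -/- (NSG). The methods give female hosts of 6 to 8 weeks. The labels do not say which of the control hairpins each tumor carried, and the methods give puromycin selection of the transduced cells without saying whether single clones were taken. Each array measured total RNA of 1 frozen tumor, from which necrotic tissue had been dissected where present.

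NSG mice combine a defect in *Prkdc*, needed to join antigen receptor genes, with loss of the receptor chain shared by several lymphocyte growth factors, and therefore make almost no T, B or NK cells. Their macrophages, neutrophils and mast cells remain, on the NOD genetic background. In an immunocompetent host, NK and T cells kill through perforin and granzymes and release interferon gamma, which raises MHC molecules, chemokines and inducible GTPases in tumor and myeloid cells. Because NSG mice differ from BALB/c mice in strain as well as in lymphocytes, the contributions of strain and immune deficiency cannot be told apart in this comparison.

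The arrays gave log2 expression values for 12394 genes. Array medians lay between 7.10 and 7.20. Correlations over all probe sets were 0.990 to 0.9956 within a host and 0.9747 to 0.9891 between hosts. NSG replicate 2 stood furthest from the rest. RNA integrity also differed between the hosts: actin control probe sets at the 3′ end exceeded those at the 5′ end by 1.42, 1.33 and 1.21 in BALB/c tumors and 1.03, 0.91 and 0.89 in NSG tumors, and for *Gapdh* control probe sets the excess was 0.31, 0.24 and 0.33 against 0.05, 0.01 and 0.04. A larger excess means that less of the 5′ end was captured. Since these ranges did not overlap, integrity and host cannot be told apart within these 6 tumors, and with integrity as a covariate limma called 0 genes, with 516 at an unadjusted p under 0.05. Differences are given as BALB/c minus NSG on the log2 scale with their standard error (SE), and adjusted p values are from limma with Benjamini-Hochberg adjustment over all genes. Nothing states whether tumors came from separate cages or cohorts, so p values measure only the spread between these tumors.

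In 67NR control tumors, 940 of 12394 genes (7.58%) differed between the hosts at an adjusted p of 0.05. Of these, 487 were higher in BALB/c tumors (3.93%) and 453 were lower (3.65%). The increases included 148 genes over 2-fold and 17 over 8-fold, and the decreases 174 over 2-fold and 7 over 8-fold. In all 940 genes the 3 tumors of one host lay entirely above those of the other, a pattern seen in 33% of all genes (20% higher and 13% lower in BALB/c). The median difference over all genes was 0.05. The count fell to 193 without BALB/c replicate 1, to 266 without BALB/c replicate 2 and to 434 without NSG replicate 1, and lay between 674 and 840 when any one of the remaining tumors was left out.

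**Figure D1:**
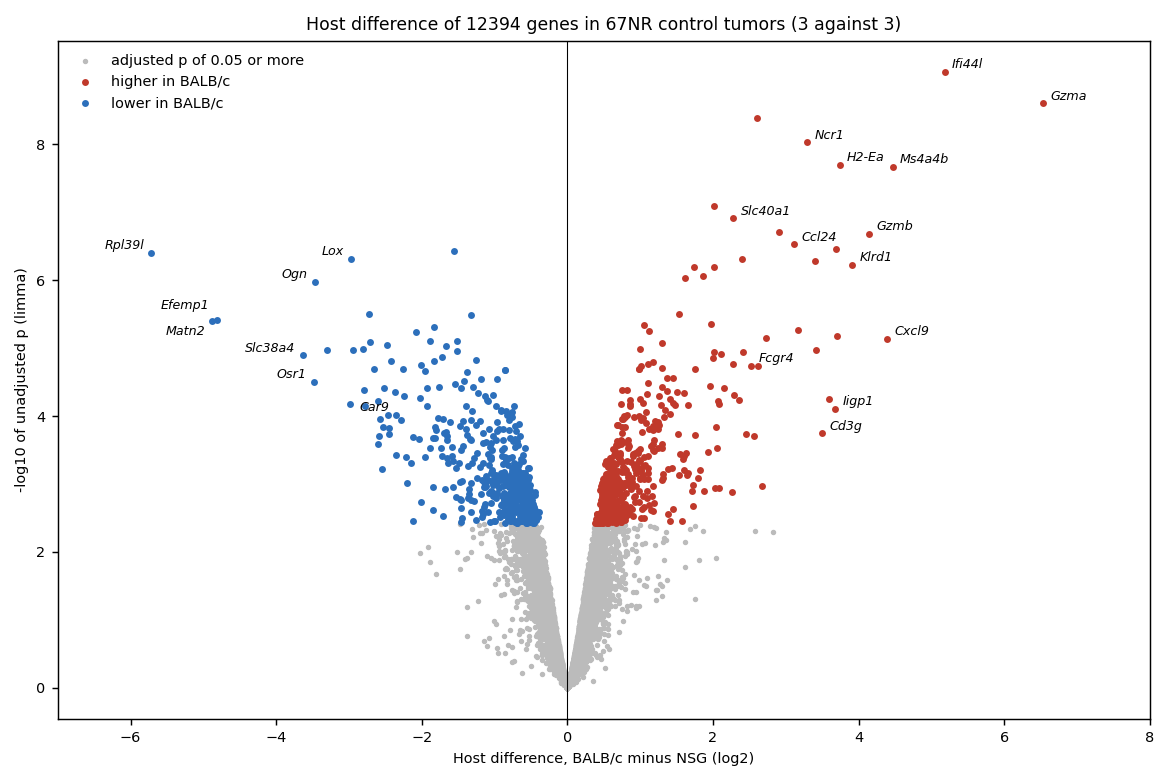
Host difference (x, BALB/c minus NSG, log2) against the −log10 of the unadjusted limma p (y) for 12394 genes in 67NR control tumors, 3 per host. Red points are the 487 genes higher and blue points the 453 genes lower in BALB/c tumors. *Gzma*, *Ifi44l*, *Ms4a4b* and *Cxcl9* lie at the far right and *Rpl39l*, *Matn2* and *Efemp1* at the far left.

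The largest increase was that of *Gzma*, the granzyme A protease that NK cells and cytotoxic T cells deliver into target cells. It was at 11.38, 10.40 and 11.33 in BALB/c tumors and at 4.44, 4.35 and 4.71 in NSG tumors (log2 6.54 ± 0.25 SE, adjusted p = 1.53e-05). *Gzmb*, which encodes the granzyme that triggers apoptosis through caspases, was at 9.11, 8.14 and 9.26 against 4.47, 4.72 and 4.87 (4.15 ± 0.27, adjusted p = 0.000254). The hosts were widely separated for both genes. *Prf1*, the pore-forming perforin, rose by 2.02 ± 0.15, *Nkg7* of cytotoxic granules by 2.91 ± 0.19 and *Fasl*, the death ligand, by 2.72 ± 0.28 (adjusted p = 0.000399, 0.000254 and 0.00245). Of 12 cytotoxic granule genes, 8 were higher in BALB/c tumors and none lower, with a median difference of 1.89. The list mean was 7.10 to 7.84 in BALB/c and 4.99 to 5.19 in NSG tumors. In bulk tissue, fewer cells of a type and less RNA per cell cannot be told apart, for this list and for those that follow.

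NK cell genes followed the same direction. *Ncr1*, the activating receptor NKp46 and a defining marker of NK cells, was at 7.68, 7.25 and 7.59 in BALB/c tumors and at 4.11, 4.42 and 4.11 in NSG tumors (3.29 ± 0.15, adjusted p = 2.89e-05). *Klrd1* (CD94) was at 8.29, 9.30 and 8.28 against 4.65, 4.37 and 5.11, and its partner *Klrc1* (NKG2A) at 6.95, 7.90 and 6.83 against 3.69, 3.42 and 3.49. Neither gene overlapped between hosts, and the differences were 3.91 ± 0.29 and 3.69 ± 0.26 (adjusted p = 0.000399 and 0.000345). *Klrk1*, which encodes the activating receptor NKG2D, rose by 1.31 ± 0.17, and the transcription factors *Tbx21* and *Eomes*, which direct NK and cytotoxic T cell programs, by 1.05 ± 0.10 and 0.65 ± 0.11 (adjusted p = 0.00533, 0.00186 and 0.0163). In all, 10 of 16 NK cell receptors and regulators were higher and none lower, with a median of 1.07. The list mean spanned only 5.88 to 6.03 in BALB/c tumors and 4.53 to 4.67 in NSG tumors.

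T cell genes were higher in BALB/c tumors as well, but unevenly. *Cd3g*, a chain of the T cell receptor complex, was at 7.24, 9.49 and 7.03 in BALB/c tumors and at 4.44, 4.44 and 4.37 in NSG tumors (3.50 ± 0.55, adjusted p = 0.0113). *Cd3d* was at 6.67, 8.19 and 6.72 against 5.56, 5.56 and 5.32 (1.71 ± 0.36, adjusted p = 0.0292). BALB/c replicate 2 was the highest tumor for both chains. *Trbv1*, a segment of the T cell receptor beta chain, rose by 3.71 ± 0.37, *Sh2d1a*, an adaptor of T and NK cells, by 1.95 ± 0.25, *Cd2*, an adhesion receptor, by 1.41 ± 0.20, and the signaling chain *Cd247* by 1.10 ± 0.14 (adjusted p = 0.00233, 0.00533, 0.00831 and 0.00498). The 4 probe sets of *Cd247* ranged from 0.087 to 1.10. *Cd96*, a receptor of T and NK cells, rose by 1.01 ± 0.12 (adjusted p = 0.00353). Of the coreceptors, *Cd8a* rose by 0.54 ± 0.13 (adjusted p = 0.0457), whereas *Cd4* differed by 0.23 ± 0.11 and *Cd3e* by 0.36 ± 0.12 without passing (adjusted p = 0.21 and 0.0944). *Cd8a* passed in 1 of 6 fits that left out a tumor. The list counted 12 of 22 genes higher and none lower, with a median of 0.78. It held 7 without BALB/c replicate 1 and 7 without NSG replicate 1.

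The B cell list changed less than the T cell list, whereas the GIMAP family had a larger median, 0.88. Over all genes 3.93% were called higher. Of 18 B cell and immunoglobulin genes, *Ighm*, the heavy chain of IgM, rose by 1.51 ± 0.20 (adjusted p = 0.00561) and *Tnfrsf17*, a receptor of plasma cells, by 0.51 ± 0.10 (adjusted p = 0.0258), and the list median was 0.27. *Ighm* passed in all 6 fits that left out a tumor and *Tnfrsf17* in 2 of them. *Ighm* was at 9.39, 9.55 and 8.96 against 8.13, 7.54 and 7.71, and its 11 probe sets ranged from -0.26 to 1.57. The defining B cell markers *Ms4a1*, *Cd79a* and *Cd79b* differed by 0.42, 0.33 and 0.51 and did not pass (adjusted p = 0.131, 0.149 and 0.053). *Jchain*, a marker of antibody-secreting cells, was at 4.00, 5.62 and 4.18 against 3.83, 3.72 and 3.54, high in BALB/c replicate 2 alone (0.90 ± 0.37, adjusted p = 0.162). In the GIMAP family of lymphocyte survival GTPases, 4 of 5 genes were higher, led by *Gimap7* with 7.76, 8.63 and 7.56 against 4.44, 4.67 and 4.63 (3.40 ± 0.25, adjusted p = 0.000378). The family counted 2 genes without NSG replicate 1.

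*Ms4a4b*, a membrane protein of T and NK cells, was at 8.74, 9.24 and 8.39 in BALB/c tumors against 4.21, 4.63 and 4.13 in NSG tumors (4.47 ± 0.22, adjusted p = 4.36e-05). *Ltb*, which encodes lymphotoxin beta, a lymphocyte cytokine, rose by 3.17 ± 0.31 (adjusted p = 0.00205). Of 13 genes of immune checkpoints and regulatory T cells, 5 were higher: *Tnfrsf18* (GITR, 1.45 ± 0.20), *Ctla4* (1.20 ± 0.19), *Cd274* (PD-L1, 0.97 ± 0.17), *Pdcd1lg2* (PD-L2, 0.82 ± 0.15) and the tryptophan-degrading enzyme *Ido1* (0.87 ± 0.20), with adjusted p from 0.00678 to 0.0385. This count was 2 without BALB/c replicate 1 and 3 without NSG replicate 1. Among 16 genes of the common gamma chain cytokine system, the IL-2 receptor chain *Il2rb* (1.09 ± 0.14), the feedback inhibitor *Cish* (0.55 ± 0.11) and *Stat6* (0.50 ± 0.12) rose (adjusted p = 0.00583, 0.0226 and 0.045), of which 1 passed without BALB/c replicate 1 or 2 or NSG replicate 1. *Il2rg*, the altered gene of the NSG host, was not analysed here. *Prkdc* was at 8.18, 8.11 and 7.97 against 7.80, 7.88 and 7.59 (0.33 ± 0.12, adjusted p = 0.122), and none of 7 genes of V(D)J joining passed.

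**Figure D2:**
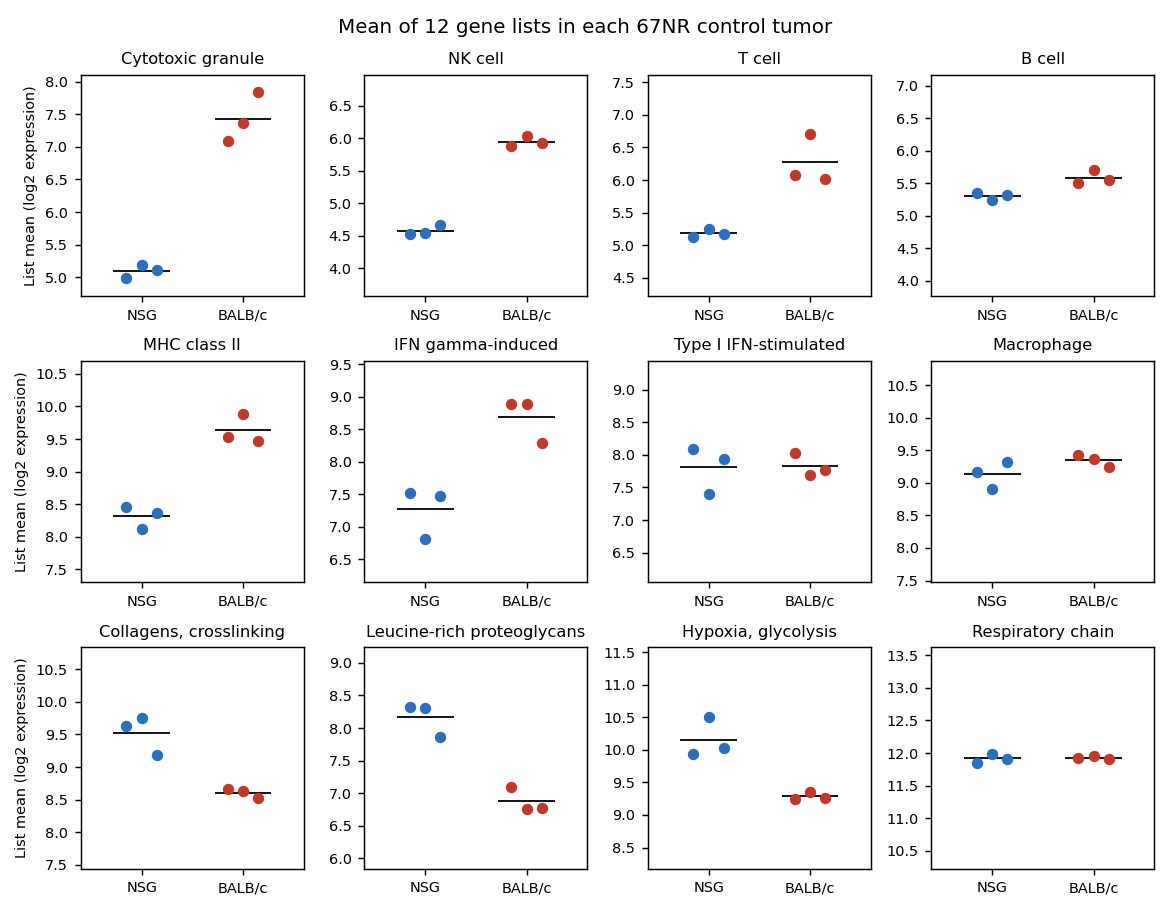
Mean log2 expression of 12 gene lists in each 67NR control tumor (points; blue NSG, red BALB/c; line, mean of 3 tumors), with every panel spanning the same number of log2 units. Lymphocyte, MHC class II and interferon gamma-induced lists were higher in every BALB/c tumor, the matrix and hypoxia lists were lower, and the type I interferon-stimulated, macrophage and respiratory chain lists overlapped.

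MHC class II genes, which present antigen to CD4 T cells, were higher in BALB/c tumors for 8 of 11 members, with no member lower and a median of 0.79. *H2-Eb1* was at 10.96, 11.69 and 10.83 against 9.08, 8.30 and 8.86 (2.41 ± 0.26, adjusted p = 0.00279), *H2-Ab1* rose by 2.01 ± 0.22 and *H2-Aa* by 2.36 ± 0.32 (adjusted p = 0.00279 and 0.00637). *H2-DMa*, which helps load peptides onto class II molecules, rose by 0.79 ± 0.12 (adjusted p = 0.0101). *H2-Ea* was at 10.68, 10.95 and 10.29 against 7.08, 6.96 and 6.65 (3.74 ± 0.18, adjusted p = 4.36e-05), and its 3 probe sets ranged from 0.26 to 8.25. The NOD strain is known to lack a functional *H2-Ea*, and strain and immune status cannot be told apart for this gene. The class II count was 5 without BALB/c replicate 2 and 6 to 8 without any other tumor. In MHC class I loading, 4 of 14 genes were higher: the peptide transporter *Tap1* (1.03 ± 0.15), the immunoproteasome subunits *Psmb9* (1.18 ± 0.18) and *Psmb8* (0.73 ± 0.18), and the trimming peptidase *Erap1* (0.61 ± 0.14), with adjusted p from 0.00873 to 0.0487. The class I heavy chain *H2-K1* differed by 0.77 ± 0.22 without passing (adjusted p = 0.0652). The class I count was 0 without BALB/c replicate 1 and 2 without BALB/c replicate 2, NSG replicate 1 or NSG replicate 2.

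Interferon gamma-induced genes were among the most raised, while its own transcript did not pass. *Cxcl9*, a chemokine that draws CXCR3-bearing T and NK cells, was at 11.43, 11.87 and 10.69 in BALB/c tumors and at 7.14, 5.92 and 7.75 in NSG tumors (4.39 ± 0.45, adjusted p = 0.00246). *Cxcl11*, a ligand of the same receptor, was at 9.32, 9.09 and 8.15 against 5.28, 4.88 and 6.14 (3.42 ± 0.37, adjusted p = 0.00275). *Iigp1*, an interferon-inducible GTPase, was at 11.77, 11.66 and 10.38 against 8.31, 6.44 and 8.03 (3.68 ± 0.51, adjusted p = 0.00732). In each of these 3 genes BALB/c replicate 3 was the lowest tumor of its host and NSG replicate 2 the lowest of all. The GTPases *Gbp6*, *Ifi47* and *Igtp* rose by 1.65 ± 0.23, 1.29 ± 0.21 and 1.63 ± 0.28 (adjusted p = 0.0068, 0.0136 and 0.0163). The list counted 10 of 17 higher and none lower, with a median of 1.16, and 4 higher without either BALB/c replicate 1 or BALB/c replicate 2. With the RNA integrity covariate, which cannot be told apart from host here, the list median was -0.66. *Ifng* was at 5.14, 6.35 and 5.20 against 4.59, 4.24 and 4.68 (1.06 ± 0.30, adjusted p = 0.0695), and of 11 genes of its receptor and signaling, *Irf8* (0.61 ± 0.13) and *Jak2* (0.59 ± 0.13) rose (adjusted p = 0.0273 and 0.0312). Neither passed without BALB/c replicate 1, BALB/c replicate 2 or NSG replicate 3. Over all genes 3.93% were called higher.

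Type I interferon-stimulated genes did not share this shift in control tumors. None of 25 was higher and *Bst2*, which tethers budding virus particles, was lower by 0.72 ± 0.14 (7.35, 7.78 and 7.78 against 8.36, 8.28 and 8.42, adjusted p = 0.0229). The list median was 0.11, and the list means of the hosts overlapped, 7.69 to 8.02 in BALB/c and 7.40 to 8.09 in NSG tumors. *Bst2* passed in 2 of 6 fits that left out a tumor, and the median was -0.06 without BALB/c replicate 1 and -0.08 without NSG replicate 2. *Ifi44l*, which lay outside the list, had the smallest p of all genes and was at 9.78, 9.54 and 9.18 against 4.23, 4.16 and 4.56 (5.18 ± 0.17, adjusted p = 1.04e-05), with its 3 probe sets between 0.70 and 5.18. It is known as the H28 minor histocompatibility gene, whose expression differs between mouse strains.

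The 250 bases before the transcription start of 5 of these genes are shown because they place the interferon gamma-induced and class II genes beside the short motifs through which such genes are known to be read. *Cxcl9*, *Ifi47*, *H2-Eb1* and *H2-Aa* were named members with a promoter in the table, and *Igtp* was added after its values and motifs had been seen. Capitals mark matches, on either strand, to the interferon gamma-activated site (TTCNNNGAA), the interferon-stimulated response element (GAAA repeated after any 2 bases) or the Y box core (ATTGG). Matches to different motifs were allowed to overlap. Sequences are from RefSeq on GRCm38.p6, 5′ to 3′ on the strand of the gene, whose reference strain is neither of the hosts.
*Cxcl9* (chr5:92328080-92328329, minus strand): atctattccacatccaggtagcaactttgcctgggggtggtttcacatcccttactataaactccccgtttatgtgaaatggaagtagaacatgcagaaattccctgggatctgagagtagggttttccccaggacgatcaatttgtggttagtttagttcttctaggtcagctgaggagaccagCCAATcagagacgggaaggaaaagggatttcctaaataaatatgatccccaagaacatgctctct
*Ifi47* (chr11:49076337-49076586, plus strand): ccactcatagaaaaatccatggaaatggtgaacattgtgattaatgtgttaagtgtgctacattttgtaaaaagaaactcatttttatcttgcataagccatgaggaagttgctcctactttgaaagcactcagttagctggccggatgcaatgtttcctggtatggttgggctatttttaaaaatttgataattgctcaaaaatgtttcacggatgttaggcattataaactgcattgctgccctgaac
*Igtp* (chr11:58199306-58199555, plus strand): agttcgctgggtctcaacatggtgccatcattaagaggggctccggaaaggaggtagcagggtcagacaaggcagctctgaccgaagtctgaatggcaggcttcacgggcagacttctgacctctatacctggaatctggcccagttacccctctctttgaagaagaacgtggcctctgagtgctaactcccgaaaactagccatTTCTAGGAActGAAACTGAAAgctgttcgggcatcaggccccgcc
*H2-Eb1* (chr17:34305617-34305866, plus strand): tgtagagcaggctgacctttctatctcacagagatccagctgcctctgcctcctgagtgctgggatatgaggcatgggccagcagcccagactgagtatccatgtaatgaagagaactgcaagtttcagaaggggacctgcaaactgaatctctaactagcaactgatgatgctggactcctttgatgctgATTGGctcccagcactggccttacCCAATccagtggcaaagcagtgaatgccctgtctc
*H2-Aa* (chr17:34287824-34288073, minus strand): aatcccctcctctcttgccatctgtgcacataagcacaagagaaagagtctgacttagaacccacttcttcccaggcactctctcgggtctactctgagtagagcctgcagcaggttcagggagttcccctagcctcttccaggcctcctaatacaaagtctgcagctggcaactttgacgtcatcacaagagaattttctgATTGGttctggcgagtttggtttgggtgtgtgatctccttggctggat

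The *Igtp* window held an interferon gamma-activated site, TTCTAGGAA, 45 to 37 bases before the start and an interferon-stimulated response element, GAAACTGAAA, 34 to 25 bases before it. *H2-Eb1* held 2 Y box cores, one in each orientation, at 59 to 55 and 35 to 31 bases, *H2-Aa* held 1 at 48 to 44 bases, and *Cxcl9* held 1 at 65 to 61 bases. No match was found in the *Ifi47* window. Of the 10 interferon gamma-induced genes with a promoter in the table, 7 held the response element and 3 the activated site, and of all 32851 promoter windows 2.98% and 7.02% did. Of 7 class II genes with a promoter, 5 held a Y box core, against 33.9% of all windows. These matches describe letters and not binding.

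Chemokines and their receptors divided between hosts. *Ccl24*, an eosinophil attractant made by alternatively activated macrophages, was at 9.31, 9.45 and 8.71 in BALB/c tumors and at 5.98, 6.35 and 5.81 in NSG tumors (3.11 ± 0.21, adjusted p = 0.00033). *Xcl1*, made by NK and CD8 T cells, rose by 1.02 ± 0.16, *Ccl5* by 1.55 ± 0.27 and *Ccl22* by 0.83 ± 0.16 (adjusted p = 0.011, 0.0164 and 0.0237). *Cxcl14*, a chemokine of epithelium and stroma, went the other way, at 7.58, 7.94 and 6.81 against 9.92, 10.11 and 9.72 (-2.47 ± 0.26, adjusted p = 0.00262). Of 26 chemokines measured, 8 were higher and 2 lower, the second being *Cxcl12* (-0.56 ± 0.14, adjusted p = 0.0498), with a median of 0.46. The 8 became 3 without BALB/c replicate 1, 2 without BALB/c replicate 2 and 4 without NSG replicate 1, and *Cxcl12* passed in 1 of 6 fits that left out a tumor. Among 15 receptors, *Ccr2*, which brings monocytes into tissue, was at 9.99, 10.07 and 10.20 against 8.50, 7.46 and 7.97 (2.11 ± 0.23, adjusted p = 0.0029). *Cxcr3*, the receptor of *Cxcl9* and *Cxcl11*, rose by 0.69 ± 0.14 and *Ccr1* by 0.62 ± 0.14, whereas *Cxcr4* fell by 1.14 ± 0.23 (adjusted p = 0.025, 0.0369 and 0.0252). Of these 4 receptors, *Ccr2* alone passed without BALB/c replicate 1.

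Among macrophage genes, single polarization genes differed in both directions while the general markers did not pass. The general markers *Adgre1* (F4/80), *Csf1r*, *Cd68* and *C1qa* differed by -0.04, 0.57, -0.18 and 0.30 and none passed (adjusted p = 0.852, 0.134, 0.464 and 0.173). *Slc40a1*, the iron exporter ferroportin of iron-recycling macrophages, was at 10.85, 10.95 and 10.62 in BALB/c tumors and at 8.36, 8.47 and 8.75 in NSG tumors (2.28 ± 0.14, adjusted p = 0.000189). *Spic*, a transcription factor of the same cells, was at 6.38, 6.74 and 6.36 against 5.40, 5.39 and 5.38 (1.10 ± 0.13, adjusted p = 0.00345). *Retnla*, a marker of alternative activation by IL-4 and IL-13, was at 8.56, 8.38 and 7.45 against 5.72, 5.93 and 5.93 (2.27 ± 0.26, adjusted p = 0.00345). *Arg1*, the arginase commonly read as another such marker, was lower in BALB/c tumors, at 7.08, 7.42 and 6.43 against 9.49, 10.82 and 10.54 (-3.31 ± 0.36, adjusted p = 0.00275). *Retnla* and *Arg1* thus differed between hosts in opposite directions. *Apoe*, the lipid carrier, rose by 1.00 ± 0.11 (adjusted p = 0.00275). Of 31 genes, 6 were higher and 3 lower, where 3.93% of all genes were called higher and 3.65% lower. The lectins *Clec10a* (2.04 ± 0.31) and *Mgl2* (1.82 ± 0.34) were the other increases, and *Gpnmb* (-2.51 ± 0.32), a lysosomal glycoprotein, and *Lyve1* (-2.003 ± 0.45), a hyaluronan receptor, were the other decreases, all 4 being named after their values were seen. With the RNA integrity covariate the list median turned from 0.30 to -0.17.

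The lists of Fc receptors, dendritic cells, granulocytes and interleukin-1 genes held 2 to 5 calls each, all of them increases. Each share was above the 3.93% of all genes called higher. Among 8 Fc receptors, which bind antibody, *Fcgr4*, an activating receptor of macrophages, was at 10.55, 10.61 and 9.80 against 8.03, 7.19 and 8.16 (2.53 ± 0.29, adjusted p = 0.00353), and the inhibitory *Fcgr2b* rose by 0.99 ± 0.17 (adjusted p = 0.0149). Of 17 dendritic cell genes, *Itgax* (CD11c, 1.06 ± 0.20), *Batf3* (0.65 ± 0.13) and *Cd209a* (0.50 ± 0.10) rose (adjusted p = 0.0199, 0.0252 and 0.027), while the defining markers *Flt3*, *Zbtb46* and *Xcr1* differed by 0.08, 0.15 and 0.10 (adjusted p = 0.719, 0.44 and 0.745). Of 19 neutrophil and granulocyte genes, *Il1b*, an inflammatory cytokine, was at 9.81, 10.06 and 9.33 against 7.55, 7.78 and 7.93 (1.98 ± 0.19, adjusted p = 0.00186) and the formyl peptide receptor *Fpr2* rose by 2.46 ± 0.39 (adjusted p = 0.0114). The neutrophil markers *S100a8*, *S100a9* and *Cxcr2* differed by 0.49, -0.14 and 0.34 (adjusted p = 0.297, 0.76 and 0.0995). In the list of inflammatory caspases and interleukin-1 genes 5 of 16 rose: *Il1b*, *Nlrp3* (0.74 ± 0.10), *Il18bp* (1.13 ± 0.17), *Il1a* (0.94 ± 0.19) and *Il6* (0.90 ± 0.22), with adjusted p from 0.00186 to 0.0448. That count was 2 without BALB/c replicate 1 and 3 without BALB/c replicate 2 or NSG replicate 1, and the dendritic cell count was 0 without either BALB/c replicate 1 or 2 and 1 without NSG replicate 1 or 2. *Rnase2a*, an eosinophil-associated ribonuclease, was at 7.77, 9.48 and 7.42 against 4.57, 4.23 and 5.09 (3.59 ± 0.48, adjusted p = 0.00637).

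Of 12 mast cell genes, 1 passed, where 7.58% of all genes did. This was *Mcpt2*, a mast cell protease, at 5.55, 5.94 and 5.63 in BALB/c tumors and at 8.35, 7.74 and 9.41 in NSG tumors (-2.79 ± 0.36, adjusted p = 0.00543). The defining markers *Cpa3*, *Mcpt4* and *Cma1* differed by -0.50, 0.22 and -1.23, with adjusted p of 0.68, 0.828 and 0.191, and varied widely within the NSG host: *Cpa3* was at 9.57, 7.50 and 10.56 there. In the complement system, *C6* and *C9* of the membrane attack complex rose by 1.86 ± 0.15 and 0.99 ± 0.12 (adjusted p = 0.00051 and 0.00355), 2 of 17 genes, against 7.58% of all genes. *Hc*, complement C5, which the NOD strain is known to lack, was at 5.14, 5.11 and 5.32 against 4.88, 4.50 and 5.03 (0.39 ± 0.15, adjusted p = 0.145).

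**Figure D3:**
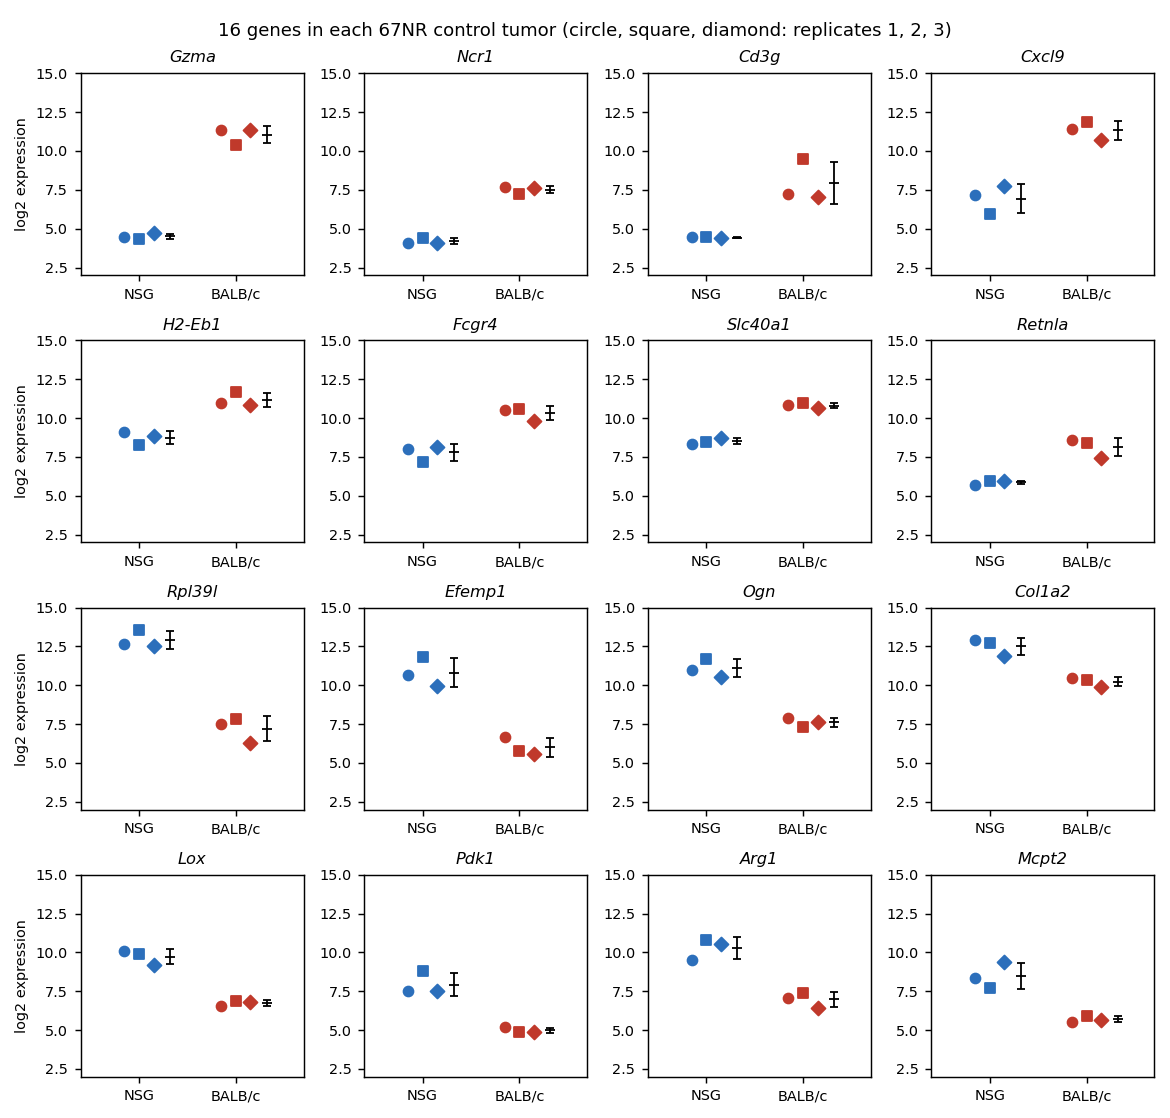
Log2 expression of 16 genes in each 67NR control tumor (blue NSG, red BALB/c; the marker shape gives the replicate number; the bar beside the points is the mean ± SD of 3 tumors). All 16 were called genes, and every called gene was separated by host, as were 33% of all genes. Within NSG tumors replicate 2 was the highest for *Ncr1*, *Rpl39l*, *Efemp1*, *Ogn*, *Pdk1* and *Arg1*. It was the lowest for *Gzma*, *Cxcl9*, *H2-Eb1*, *Fcgr4* and *Mcpt2*.

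Extracellular matrix genes were lower in BALB/c tumors. *Lox*, the enzyme that crosslinks collagen, was at 6.56, 6.87 and 6.82 against 10.06, 9.92 and 9.20 in NSG tumors (-2.98 ± 0.22, adjusted p = 0.000378). *Col1a2*, a chain of type I collagen, was at 10.48, 10.36 and 9.88 against 12.88, 12.74 and 11.89 (-2.26 ± 0.27, adjusted p = 0.00355). The hosts did not overlap for either gene. The prolyl hydroxylase *P4ha1*, *Col14a1* and *Loxl1* were also lower, at -1.10 ± 0.15, -1.47 ± 0.22 and -1.33 ± 0.22 (adjusted p = 0.00641, 0.00989 and 0.0127). *Col1a1* differed by -0.87 ± 0.31 and did not pass (adjusted p = 0.122). Of 24 genes of fibrillar collagens and crosslinking, 14 were lower and none higher, with a median of -0.88. The list mean was 8.53 to 8.67 in BALB/c tumors and 9.18 to 9.75 in NSG tumors. The 14 became 5 without BALB/c replicate 1, BALB/c replicate 2 or NSG replicate 1, 7 without BALB/c replicate 3 and 8 without NSG replicate 2, with the median between -1.07 and -0.68.

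The small leucine-rich proteoglycans, which bind collagen fibrils, were lower for 6 of 9 members, with none higher and a median of -1.26. *Ogn* (osteoglycin) was at 7.91, 7.32 and 7.63 in BALB/c tumors and at 10.98, 11.72 and 10.56 in NSG tumors (-3.47 ± 0.28, adjusted p = 0.000566). *Bgn* (biglycan) was at 8.58, 8.55 and 8.19 against 11.31, 11.69 and 10.46 (-2.71 ± 0.28, adjusted p = 0.00247). *Dcn* (decorin) was at 10.43, 10.15 and 9.75 against 12.24, 11.99 and 11.61 (-1.84 ± 0.21, adjusted p = 0.00332). All 3 were higher in every NSG tumor than in any BALB/c tumor. *Omd* and *Prelp* fell by 1.29 ± 0.16 and 1.17 ± 0.28 and *Lum* by 1.26 ± 0.31 (adjusted p = 0.00533, 0.041 and 0.0476). *Prelp* and *Lum* each passed in 1 of 6 fits that left out a tumor, whereas *Ogn*, *Bgn*, *Dcn* and *Omd* passed in all 6. Of 19 fibroblast genes, 4 were lower, *Fbln2* (-1.47 ± 0.25), *Dpt* (-2.22 ± 0.39), *Tagln* (-1.13 ± 0.23) and *Acta2* (-1.17 ± 0.28), with adjusted p from 0.0153 to 0.0449. These 4 became 0 without BALB/c replicate 1, 1 without BALB/c replicate 2 and 2 without BALB/c replicate 3 or NSG replicate 1. The other probe set of *Acta2* stood at 0.193, and *Acta2* passed in 1 of 6 fits that left out a tumor. *Pdgfra*, the receptor that marks most fibroblasts, was at 9.40, 9.24 and 9.63 against 10.07, 9.70 and 9.57 (-0.36 ± 0.16, adjusted p = 0.193), so the hosts overlapped for it. The fibroblast list mean was 7.81 to 7.91 in BALB/c and 8.03 to 8.42 in NSG tumors. How far fibroblast content or the tumor cells themselves account for the matrix genes was not tested.

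Some protease and heparan sulfate genes changed, where 7.58% of all genes were called. The share was highest among the proteases and inhibitors, 4 of 17. *Mmp2*, a gelatinase, fell by 1.69 ± 0.27 and *Adamts5* by 0.80 ± 0.19, while *Mmp10* rose by 2.56 ± 0.41 and *Adamts4* by 0.92 ± 0.13 (adjusted p = 0.0113, 0.0428, 0.0118 and 0.00868), 4 of 17 proteases and inhibitors. The other probe set of *Adamts4* stood at -0.997. *Mmp10*, a stromelysin, was at 9.92, 10.02 and 9.64 against 7.06, 6.46 and 8.37. Of 22 genes of heparan sulfate synthesis and breakdown, the polymerase *Ext1* fell by 1.24 ± 0.21 and *Extl2* and *Ndst4* rose by 0.63 ± 0.12 and 0.55 ± 0.13 (adjusted p = 0.0162, 0.0229 and 0.0385), and of 14 core proteins *Sdc2* and *Col18a1* fell by 0.88 ± 0.20 and 0.92 ± 0.22 (adjusted p = 0.0369 and 0.0449). Of 11 ligands of NK receptors, *Cd48* and *Clec2i* rose by 0.84 ± 0.14 and 1.14 ± 0.19 (adjusted p = 0.0127 and 0.0143), and neither passed without BALB/c replicate 1, although no fit that left out a tumor gave a difference below 0.718 and 0.925 respectively. Without BALB/c replicate 1 or 2 none of the heparan sulfate genes passed, and of the 4 proteases 1 higher gene passed without BALB/c replicate 1.

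Hypoxia and glycolysis genes were lower in BALB/c tumors. *Pdk1*, which keeps pyruvate out of mitochondria under low oxygen, was at 5.17, 4.89 and 4.91 in BALB/c tumors and at 7.51, 8.79 and 7.50 in NSG tumors (-2.94 ± 0.32, adjusted p = 0.00275). *Car9*, carbonic anhydrase 9 and a widely used hypoxia marker, was at 5.24, 5.43 and 5.43 against 7.12, 8.64 and 7.39 (-2.35 ± 0.34, adjusted p = 0.00836). For both genes NSG replicate 2 was the highest tumor and the BALB/c tumors lay close together. The glycolytic enzymes *Pfkl* and *Aldoa* fell by 1.52 ± 0.16 and 0.85 ± 0.10 (adjusted p = 0.00275 and 0.00357). Of 23 genes, 11 were lower, with a median of -0.84, and 1 was higher, *Pfkp* (0.40 ± 0.10, adjusted p = 0.0494), named after its value was seen. The list mean was 9.25 to 9.35 in BALB/c tumors and 9.94, 10.03 and 10.5 in NSG tumors. Without NSG replicate 2, 10 genes were lower and the median was -0.63, and without BALB/c replicate 1 only 4 were lower. *Pfkp* passed in 0 of 6 fits that left out a tumor. The 26 respiratory chain genes held no call and a median of 0.06, with list means of 11.91 to 11.96 against 11.85 to 11.99.

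The 5 largest decreases were not members of a list. *Rpl39l*, a paralog of a ribosomal protein gene that is mainly active in testis, was at 7.48, 7.82 and 6.29 in BALB/c tumors and at 12.66, 13.57 and 12.50 in NSG tumors (-5.71 ± 0.41, adjusted p = 0.000345). *Matn2*, a matrix adaptor protein, was at 5.13, 4.95 and 5.09 against 9.60, 11.20 and 9.01 (-4.88 ± 0.46, adjusted p = 0.00176). *Efemp1*, a fibulin, was at 6.68, 5.76 and 5.55 against 10.67, 11.81 and 9.95 (-4.81 ± 0.45, adjusted p = 0.00174). In all 3 the NSG tumors were far above the BALB/c tumors and NSG replicate 2 was the highest. The amino acid transporter *Slc38a4* (-3.63 ± 0.40) and the transcription factor *Osr1* of embryonic mesenchyme (-3.49 ± 0.43) were the next (adjusted p = 0.00296 and 0.00477). Further down the order, after or among list members such as *Ogn*, *Arg1*, *Lox* and *Pdk1*, the tubulin *Tubb2b* (-2.98 ± 0.41), *Igfbp6* (-2.81 ± 0.30), the secreted protein *Edil3* (-2.78 ± 0.38) and *C1qtnf3* (-2.73 ± 0.25) also fell (adjusted p = 0.0068, 0.00275, 0.00685 and 0.00154). For *Slc38a4*, *Osr1*, *Tubb2b*, *Igfbp6* and *Edil3* NSG replicate 2 was again the highest tumor.

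Other tissues of the fat pad gave 0 to 3 calls per list. Over all genes 3.93% were called higher and 3.65% lower. The endothelial increases and the skeletal muscle decreases exceeded those shares. Of 23 endothelial genes, *Cdh5* (VE-cadherin), *Sele* (E-selectin) and *Tek* rose by 0.72 ± 0.13, 1.53 ± 0.30 and 0.89 ± 0.21 (adjusted p = 0.0183, 0.0229 and 0.0396), while *Pecam1* and *Kdr* differed by -0.25 and 0.14 (adjusted p = 0.164 and 0.564). The other probe set of *Cdh5* stood at 0.19. No endothelial gene passed without BALB/c replicate 1 or 2. Of 15 adipocyte genes only *Cebpa* passed (0.55 ± 0.11, adjusted p = 0.0279), and it passed in 1 of 6 fits that left out a tumor. *Adipoq* was at 7.17, 3.99 and 7.88 against 8.55, 4.63 and 7.74, low in replicate 2 of either host. Of 21 skeletal muscle genes, *Tnni2*, *Tpm2* and *Tnnt3* fell by 2.08 ± 0.21, 1.39 ± 0.19 and 0.57 ± 0.14 (adjusted p = 0.00213, 0.00685 and 0.0435), and *Acta1* was at 5.97, 5.46 and 5.50 against 8.61, 5.84 and 8.13 (adjusted p = 0.0948). The muscle list held 7 lower genes without NSG replicate 2. The 11 milk protein genes held no call.

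Epithelial genes did not mark these tumors strongly. *Epcam* was at 4.20, 5.18 and 5.51 against 6.02, 5.17 and 4.75 and *Krt18* at 4.21, 5.07 and 4.69 against 5.38, 4.45 and 4.85, so the hosts overlapped for both (adjusted p = 0.6 and 0.613). *Cdh1* (E-cadherin) differed by -0.68 ± 0.18 and *Krt8* by -0.42 ± 0.20 without passing (adjusted p = 0.0542 and 0.211). Of 21 epithelial genes, the basal keratin *Krt14* alone changed, at 5.18, 5.56 and 5.14 against 6.93, 7.01 and 7.59 (-1.88 ± 0.19, adjusted p = 0.00247). Over all genes 7.58% were called. Of 12 mesenchymal transition genes, *Cdh11*, *Cdh2* (N-cadherin) and *Fn1* (fibronectin) fell by 1.58 ± 0.27, 0.76 ± 0.14 and 0.72 ± 0.16 (adjusted p = 0.0144, 0.0209 and 0.0369), and *Vim* differed by -0.17 (adjusted p = 0.304). Of the 3, none passed without BALB/c replicate 1 and 1 passed without BALB/c replicate 2 or NSG replicate 1.

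Proliferation genes differed slightly. *Mki67*, the Ki-67 antigen, was at 12.40, 12.27 and 12.26 in BALB/c tumors and at 11.61, 11.39 and 11.64 in NSG tumors (0.76 ± 0.11, adjusted p = 0.00882), and *Cdk1*, *Top2a* and *Ccna2* rose by 0.62 ± 0.11, 0.50 ± 0.11 and 0.46 ± 0.11 (adjusted p = 0.0207, 0.0384 and 0.0415). These were 4 of 29 cell cycle genes, whose median was 0.14, where 3.93% of all genes were called higher. The count was 0 without BALB/c replicate 1, 1 without BALB/c replicate 2 or NSG replicate 1, and 2 without NSG replicate 2 or NSG replicate 3. *Btc*, an EGF receptor ligand, rose by 1.41 ± 0.19 (adjusted p = 0.00637), the only one of 11 EGF ligands and receptors to pass, against 7.58% of all genes. None of 6 genes of the NURF complex passed, and *Bptf*, which was not targeted in these tumors, was at 9.73, 9.76 and 10.31 against 10.17, 9.37 and 9.75 (0.17 ± 0.23, adjusted p = 0.67). Of 7 erythroid genes, *Car2* and *Hba-a2* rose by 1.74 ± 0.13 and 0.62 ± 0.11 and *Alas2* fell by 1.30 ± 0.24 (adjusted p = 0.000399, 0.0148 and 0.0194).

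The same host contrast was available in 12 67NR tumors labelled BPTF KD, 6 per host and also of day 21, which share no sample with the control tumors. There 1957 genes differed between the hosts (15.8%; 8.09% higher and 7.7% lower in BALB/c). Of the 487 genes higher in BALB/c control tumors, 301 were higher in BPTF KD tumors too, 61.8% of the control list and 30% of the 1003 of the BPTF KD list. Of the 453 lower genes, 241 were shared, 53.2% of one list and 25.3% of the other, and of all 940 genes 1 was called in the opposite direction. RNA integrity overlapped between the hosts in these 12 tumors, its mean over both control transcripts being 0.545 to 1.32 in BALB/c and 0.41 to 0.81 in NSG tumors. The overlap came from actin, at 0.73 to 2.11 against 0.81 to 1.45, while *Gapdh* was nearly separated, at 0.16 to 0.52 against -0.01 to 0.17. With the mean as a covariate, 296 of the 487 and 271 of the 453 were shared. The BPTF KD lists were then larger, with 1537 higher genes in place of 1003 and 1685 lower genes in place of 954.

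*Gzma* ranged from 9.65 over a median of 11.1 to 12.7 in BPTF KD tumors of BALB/c mice and from 4.23 over 4.71 to 4.95 in those of NSG mice (6.58 ± 0.40, adjusted p = 3.83e-06). *Cxcl9* ranged from 12.5 over 13.8 to 14.5 against 5.11 over 7.16 to 7.47 (6.97 ± 0.46, adjusted p = 5.18e-06), and *H2-Eb1* from 12.7 over 13.4 to 14.4 against 7.69 over 8.70 to 10.4 (4.56 ± 0.42, adjusted p = 5.13e-05). All 3 were separated by host, as was every called gene in control tumors. The share of all genes so separated was not counted in BPTF KD tumors. The cytotoxic granule, NK cell and T cell lists held 11 of 12, 12 of 16 and 22 of 22 higher genes in BPTF KD tumors, with medians of 2.95, 2.62 and 2.22, and with the integrity covariate 11, 12 and 21. The interferon gamma-induced and class II lists held 16 of 17 and 10 of 11, with medians of 3.08 and 2.69. The type I interferon-stimulated list, which held no higher gene in control tumors, held 8 of 25 higher and none lower, with a median of 0.688. No gene passed the test of a different host effect in control and BPTF KD tumors (limma, 0 of 12394 genes, 854 at an unadjusted p under 0.05, smallest adjusted p 0.0637), while 27 passed when all 36 tumors shared one estimate of the spread. The lymphocyte medians were larger in BPTF KD tumors, but that difference did not pass for any gene.

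Matrix and hypoxia genes were less uniform in BPTF KD tumors. *Ogn* ranged from 5.84 over 7.63 to 13.4 in BALB/c and from 12.7 over 13.6 to 14.0 in NSG tumors (-4.59 ± 1.13, adjusted p = 0.0158), and *Pdk1* from 4.75 over 5.47 to 8.09 against 8.85 over 9.13 to 10.0 (-3.20 ± 0.54, adjusted p = 0.00211). *Rpl39l* ranged from 6.07 over 7.23 to 14.2 in BALB/c tumors and from 13.4 over 13.95 to 14.1 in NSG tumors (-5.00 ± 1.26, adjusted p = 0.0175). At least 1 BALB/c tumor therefore reached the NSG level for *Ogn* and *Rpl39l*, which no BALB/c control tumor did. Of the collagen, proteoglycan and hypoxia lists, 9 of 24, 6 of 9 and 11 of 23 genes were lower, with medians of -1.04, -2.15 and -0.78. *Arg1* ranged from 5.56 over 7.94 to 11.5 against 9.57 over 10.2 to 10.8 (-1.96 ± 0.94, adjusted p = 0.187), so its groups overlapped. *Mcpt2* ranged from 6.39 over 9.17 to 12.2 against 6.52 over 7.04 to 9.86 (1.69 ± 1.10, adjusted p = 0.343), and the mast cell list, with 1 lower gene of 12 in control tumors, held 8 higher genes in BPTF KD tumors.

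**Figure D4:**
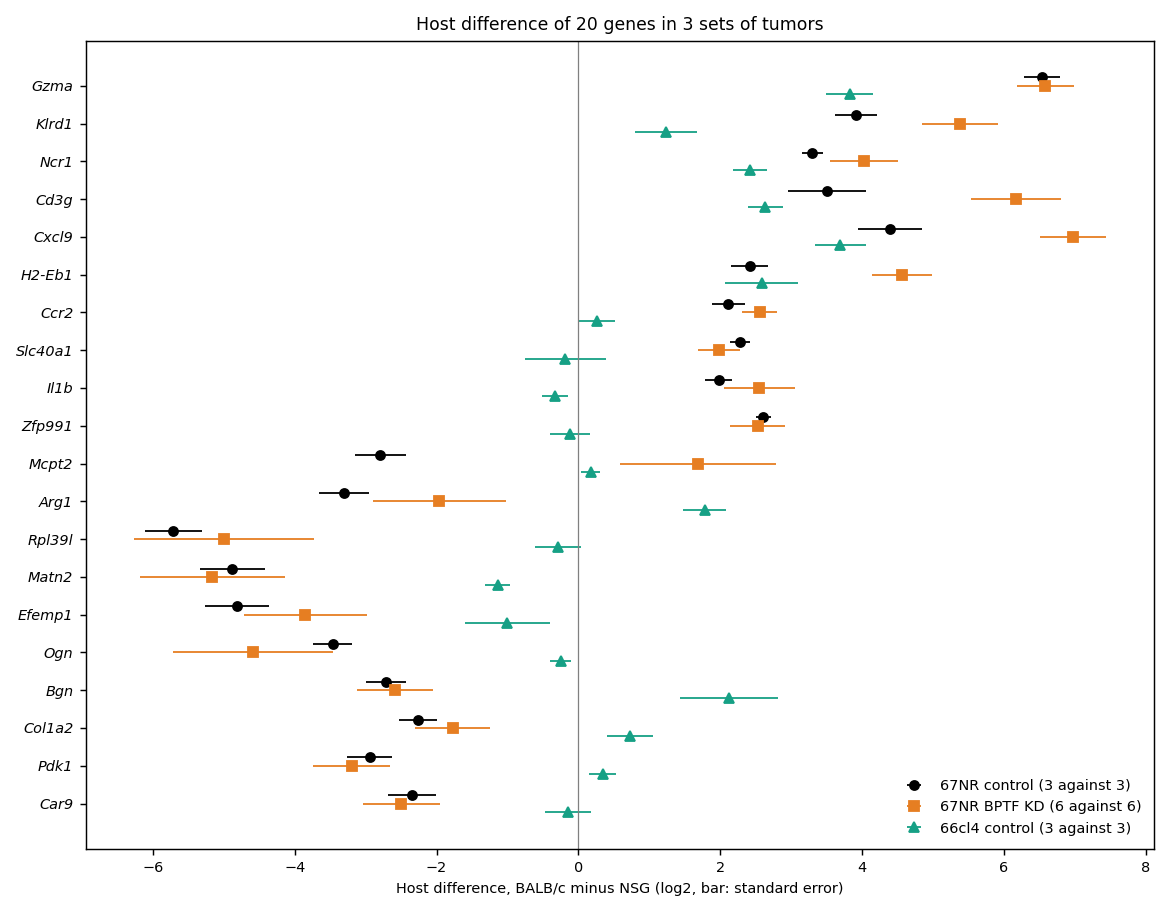
Host difference (x, BALB/c minus NSG, log2, bars SE) of 20 genes in 67NR control tumors (black), 67NR BPTF KD tumors (orange) and 66cl4 control tumors (green). The lymphocyte and interferon genes at the top lie to the right of 0 in all 3 sets, while the matrix and hypoxia genes at the bottom lie to the left of 0 in the 67NR sets and near or to the right of 0 in 66cl4, except *Matn2* and *Efemp1*.

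66cl4 is a second mouse mammary carcinoma line, whose control tumors were harvested on day 28, so that line and day cannot be told apart. In these tumors 314 genes differed between the hosts (2.53%; 1.26% higher and 1.27% lower in BALB/c). Single 66cl4 tumors decided this count, which was 2370 without BALB/c replicate 1, 114 and 63 without BALB/c replicates 2 and 3, and 30, 27 and 35 without NSG replicates 1, 2 and 3. Of the 487 genes higher in 67NR BALB/c tumors, 48 were higher in 66cl4 too, 9.86% of the 67NR list and 30.8% of the 66cl4 list, and of the 453 lower genes 28 were shared, 6.18% and 17.7%. A further 7 and 10 were called in the opposite direction, and 249 of the 487 and 218 of the 453 had the same sign in 66cl4 at any p. The host effect itself differed between the lines for 1648 genes (13.3%), 881 with a more positive value in 67NR (7.11%) and 767 with a more negative one (6.19%). That count was 579 without BALB/c replicate 1, 439 without BALB/c replicate 2, 627 without NSG replicate 1 and 992 without NSG replicate 2 of the 67NR tumors, and it was 74 when all 36 tumors shared one estimate of the spread.

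Cytotoxic genes rose in either line, 10 of 12 in 66cl4 with a median of 2.80. *Gzma* was at 8.01 over 8.58 to 9.36 in 66cl4 BALB/c tumors and at 4.49 over 4.99 to 4.99 in 66cl4 NSG tumors, a difference of 3.83 that was smaller than in 67NR by 2.71 ± 0.46 (adjusted p = 0.00885). *Klrd1* differed between the lines by 2.68 ± 0.59 (adjusted p = 0.0184), from 3.91 in 67NR to 1.23 in 66cl4. No member of the class II or interferon gamma-induced lists passed the test between lines.

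Of the myeloid genes, *Arg1* was lower by 3.31 in 67NR BALB/c tumors and higher by 1.78 in 66cl4 BALB/c tumors, a difference of -5.09 ± 0.53 (adjusted p = 0.00239). *Slc40a1* and *Ccr2* rose by 2.28 and 2.11 in 67NR and stood at -0.18 and 0.27 in 66cl4 (differences 2.46 ± 0.64 and 1.84 ± 0.38, adjusted p = 0.0299 and 0.0147), and *Il1b* at -0.33 (2.31 ± 0.29, adjusted p = 0.00427). Of the collagen list 13 of 24 genes differed between the lines and of the hypoxia list 10 of 23, with 66cl4 medians of 0.45 and 0.05. *Bgn*, *Col1a2* and *Pdk1* stood at 2.12, 0.73 and 0.34 in 66cl4 (differences -4.83 ± 0.82, -2.99 ± 0.46 and -3.29 ± 0.42, adjusted p = 0.00885, 0.00766 and 0.00427). *Rpl39l* was at 6.04 over 6.65 to 7.34 in 66cl4 BALB/c and at 6.62 over 7.13 to 7.16 in 66cl4 NSG tumors, so that only 67NR tumors of NSG mice, and single 67NR BPTF KD tumors of BALB/c mice, reached its high level among these groups (difference -5.42 ± 0.59, adjusted p = 0.00239). *Ogn* was high in 66cl4 tumors of either host, at 13.7 to 14.2 (difference -3.21 ± 0.35, adjusted p = 0.00239). Among the remaining genes with the smallest p in this test, *Dnm1* gave -2.93 ± 0.31 and *Myh4*, a myosin of fast muscle, -5.95 ± 0.71, while *Pacc1*, *Zfp991*, *Piga* and *Tnfrsf17* gave 1.39 ± 0.15, 2.72 ± 0.32, 1.59 ± 0.19 and 1.43 ± 0.18, with adjusted p from 0.00239 to 0.00427. The *Myh4* value came from 66cl4, where skeletal muscle genes were higher in BALB/c tumors, 12 of 21 with a median of 2.93, whereas *Myh4* was at 4.15, 3.83 and 3.80 against 3.80, 3.83 and 3.85 in 67NR. *Zfp991* was at 7.97, 8.13 and 7.94 against 5.32, 5.45 and 5.45 in 67NR, and its second probe set moved the other way, by -1.75.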

How the data were processed

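RNA from each tumor was labelled from 500 ng and hybridised to 1 Affymetrix mouse array. The authors deposited RMA log2 values per probe set, rounded to 2 decimals. The RMA version is not given in the sources used here, and the labels give no scan batch, so host and any array batch cannot be told apart. Of 22690 probe sets, 20393 had 1 gene symbol, 691 several and 1606 none. Symbols were updated through Entrez identifiers for 20364 probe sets, and each of 12394 genes was read from its probe set with the highest mean over 36 tumors. Of 397 called genes with several probe sets, 321 had all probe sets of the same sign and 8 had one called the other way.

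The comparison was fitted with limma 3.58.1 in R 4.3.3 on the 6 tumors, with Benjamini-Hochberg adjustment at 0.05 over all genes. An exact permutation test of 3 against 3 cannot go below 0.1. The number of arrays limits the precision. BPTF KD and 66cl4 control tumors were fitted alike, and differences between host effects as interaction terms. Alternatives were other samples in the fit, normalizations, filters, probe set rules, array weights, a replicate block, an RNA integrity covariate, the methods' t-test and leaving out each tumor. On simulated data the 6-tumor fit recovered 84% of genes changed by 1 and 96% of those changed by 2 on the log2 scale, and 10 of 190 calls were false. The simulated noise was normal and independent between genes, with no difference in RNA integrity or batch between hosts. These shares therefore describe the fit under that noise and give no error rate for the calls in the tumors.

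Named genes were the 15 largest increases and the 15 largest decreases, up to 5 members per list with the smallest p, defining markers, the altered host genes, and the 5 smallest p per direction in each interaction. Others, such as the extra genes of the comparison between lines, were chosen after their values were seen. Members and lists were chosen with earlier results of these data known. *Il2rg*, *Lck*, *Klrb1c*, *Ly6g*, *Plin1*, *Mzb1* and *Hbb-bt* were not analysed here. Figures were drawn with matplotlib 3.10.9 in Python 3.11.15.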

Additional observations from a re-analysis of the deposited data

Results flagged for a closer look

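The host effect differed between 67NR and 66cl4 control tumors for 1648 genes in limma's interaction test. It was more positive in 67NR for *Zfp991* (2.72), *Gzma* (2.71), *Klrd1* (2.68), *Slc40a1* (2.46), *Il1b* (2.31), *Ccr2* (1.84), *Piga* (1.59), *Tnfrsf17* (1.43), *Pacc1* (1.39) and *Cdk1* (1.22). It was more negative in 67NR for *Myh4* (-5.95), *Rpl39l* (-5.42), *Arg1* (-5.09), *Bgn* (-4.83), *Efemp1* (-3.81), *Matn2* (-3.74), *Pdk1* (-3.29), *Ogn* (-3.21), *Col1a2* (-2.99), *Mcpt2* (-2.96), *Dnm1* (-2.93) and *Car9* (-2.20). All values are differences of log2 host effects.

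Among 67NR BPTF KD tumors, 16 combinations of a gene and a host group of 6 tumors were examined for a single tumor that stood apart, and 2 held one, where chance gives about 1 in 20. In NSG mice, replicate 5 had *Rpl39l* at 13.44, below the others of its group, and replicate 6 had *Mcpt2* at 9.86, above them.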

How the results depend on the processing

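The 940 calls (487 higher, 453 lower) became 15 (12 and 3) with the methods' t-test after Benjamini-Hochberg adjustment, which gave 812 genes at its own unadjusted level of 0.01, 371 (190 and 181) in a fit of all 36 tumors, 1732 (933 and 799) with array weights and 1902 (846 and 1056) with each probe set on its own. They ranged from 193 to 840 (114 to 424 higher, 79 to 416 lower) when 1 tumor was left out. With array medians subtracted 59.7% of 1045 calls were higher, against 51.8%. The 168 calls among listed genes became 3 with the t-test, 65 with all 36 tumors and 75 to 152 with a tumor left out.

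With the RNA integrity covariate all counts were 0, 144 of the 940 genes changed sign, and 8 list medians turned: interferon gamma-induced -0.66, type I interferon-stimulated -0.86, macrophage -0.17, complement -0.25, adipocyte -0.49, NURF -0.13, mast cell 0.21 and matrix proteases 0.47. Under it *Bst2* stood at 0.12, *Ccr1* at -0.15, *Erap1* at -0.40, *Ifi47* at -0.49, *Igtp* at -0.33, *Iigp1* at -0.22, *Jak2* at -0.20 and *Tek* at -0.32. The protease median was 0.003 without BALB/c replicate 1 and 0.093 without NSG replicate 2, the epithelial median 0.007 without NSG replicate 1 and -0.23 to 0.007 over all fits without 1 tumor, and the heparan sulfate median 0.004 with probe sets averaged. *Acta2* stood at 0.19 without cross-hybridising probe sets and *Adamts4* at -0.038 with probe sets averaged. The causes were not tested.

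With the replicate block 794 genes were called. Deviations of same-numbered tumors correlated at 0.03, 0.19 and 0.07, so the numbers were not taken to pair the tumors. The block gave 2268 calls in 66cl4 controls.

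In BPTF KD tumors 3908 genes passed with all 36 tumors, 3222 with the integrity covariate, and 1418 to 2478 with a tumor left out. The interactions gave 27 (BPTF KD) and 74 (66cl4) calls with all 36 tumors, and 0 and 439 to 1529 with a tumor left out. The 66cl4 control count was 517 without the dimmest 25% of genes and 27 to 2370 with a tumor left out. Alternatives for 66cl4 controls and the integrity covariate in BPTF KD tumors were chosen after seeing the data.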
